A study of Mus musculus with 6 samples.

Results

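Epithelial cells keep their identity through a small circle of regulators, and 10 of these genes were followed in the embryonic stomach: the splicing regulators Esrp1, Esrp2 and Rbm47, the grainyhead-like factors Grhl1 and Grhl2, the Ets factors Elf3 and Ehf, the zinc finger factors Ovol1 and Ovol2, and Trp63, which encodes p63. They were chosen by name as regulators of epithelial splicing and transcription, and all 10 were among the 19938 genes measured, each with 1 probe set annotated to its symbol alone. RNA of whole stomachs from mouse embryos at E13.5 (a stage in days of embryonic development) was measured on 6 Affymetrix arrays. Of these, 3 came from embryos of genotype Nkx3.2Cre;R26-SmoM2, for which SmoM2 is written from here on, and 3 from embryos labelled wild type, with no further allele named. SmoM2 is a form of the hedgehog transducer Smoothened that signals without ligand, expressed from the Rosa26 locus after Cre recombination. The Cre is driven by Nkx3.2, a gene of the stomach mesenchyme, whereas the 10 regulators are known as epithelial genes. The labels do not state whether a replicate was 1 embryo, 1 litter or a pool, and p-values therefore measure the spread between these samples, which may be technical.

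Esrp1 and Esrp2 bind RNA and select the epithelial exons of transcripts such as Fgfr2, Cd44 and Ctnnd1, and Rbm47 both regulates splicing and assists Apobec1 in RNA editing. Grainyhead-like factors activate genes of cell junctions, among them Cdh1 and Cldn4. Ovol factors repress the genes that drive epithelial cells towards a mesenchymal state, such as Zeb1, while p63 maintains the basal cells of stratified epithelia, the type that lines the mouse forestomach. Elf3 and Ehf are Ets factors restricted to epithelia.

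Promoter sequence was at hand for 4 of the 10 genes, in 7 windows of 250 bases before an annotated transcription start (RefSeq, build GRCm38.p6). Rbm47, 1 of the regulators that changed, is shown with its 2 most upstream starts (chr5:66151955-66152204 and chr5:66150979-66151228, minus strand), and Elf3, whose groups overlapped, is shown as a counterpart (chr1:135258473-135258722, minus strand). Capitals mark matches to motifs searched on both strands: CACCTG, the E-box that Zeb and Snail factors bind, AACCGG, the core of the grainyhead motif, the whole motif AACCGGTT that contains this core, the Ets motif CCGGAAGT and the Gli motif GACCACCCA.
Rbm47 start 1: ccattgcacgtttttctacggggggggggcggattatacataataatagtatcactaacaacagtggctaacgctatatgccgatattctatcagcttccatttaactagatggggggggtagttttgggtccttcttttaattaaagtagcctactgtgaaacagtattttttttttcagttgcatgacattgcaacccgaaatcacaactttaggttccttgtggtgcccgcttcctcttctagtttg
Rbm47 start 2: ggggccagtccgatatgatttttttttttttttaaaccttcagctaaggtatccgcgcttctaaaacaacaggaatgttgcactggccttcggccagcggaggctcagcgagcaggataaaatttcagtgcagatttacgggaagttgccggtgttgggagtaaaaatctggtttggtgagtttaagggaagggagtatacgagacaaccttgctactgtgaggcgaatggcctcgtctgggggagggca
Elf3 start 1: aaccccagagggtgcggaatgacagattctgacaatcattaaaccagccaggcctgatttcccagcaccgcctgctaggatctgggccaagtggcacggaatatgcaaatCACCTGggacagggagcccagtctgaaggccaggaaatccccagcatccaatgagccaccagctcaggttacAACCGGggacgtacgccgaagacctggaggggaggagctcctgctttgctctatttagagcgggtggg
Elf3 held the E-box 140 to 135 bases and the grainyhead core 68 to 63 bases before its start. The windows of Rbm47 (3), Grhl1 (2) and Ovol2 (1) held none of the 5 motifs. Of 32851 such windows of all genes, where a gene can have several starts, 17.2% held the E-box, 5.62% the grainyhead core, 0.116% the whole grainyhead motif, 2.88% the Ets motif and 0.225% the Gli motif. A match is a run of letters and not a measured binding site, and a window without one says nothing of the factor.

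The deposited values are log2 RMA signals, with array medians from 8.56 to 8.62. Hhip, a hedgehog target, was at 11.67 to 11.73 in SmoM2 and at 10.36 to 10.49 in wild type arrays (2.43-fold higher, limma adjusted p = 0.000175), and Ptch1, the hedgehog receptor and also a target, rose 1.40-fold (adjusted p = 0.0174). Smo itself was at 11.92 to 12.26 in SmoM2 and at 11.66 to 11.72 in wild type (adjusted p = 0.154). Barx1, a defining factor of stomach mesenchyme named outside the naming rule, was at 12.42 or more on every array. Xist was at 7.11 in wild type 1 and between 11.43 and 12.37 on the other 5 arrays, and the mean of 4 Y-linked genes was 8.71 to 9.27 in SmoM2 and 9.07 to 10.37 in wild type.

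Esrp1 and Rbm47 fell in SmoM2, while Esrp2 and Grhl2 were lower on every SmoM2 array without passing the test, and the other 6 regulators had overlapping groups. By limma on all genes (Benjamini-Hochberg adjusted p under 0.05), 2 of the 10 were lower and 0 were higher, where 0.657% of all genes were lower, 0.326% were higher and 0.983% changed in either direction. All 3 SmoM2 arrays lay below all 3 wild type arrays for 4 of the 10, against 10.1% of all genes, and above them for 0 of the 10, against 5.64% (15.7% of all genes did not overlap in either direction). The median change of the 10 was -0.04 on the log2 scale, against 0.00182 for all genes tested. Of the 10, 8 had a negative change, as did 9817 of all 19938 genes. Among these 8, Elf3, Ehf, Ovol1 and Ovol2 were at -0.06 to -0.02 with 95% intervals across 0. In whole tissue, fewer epithelial cells and less RNA of a gene per cell cannot be told apart.

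**Figure D1:**
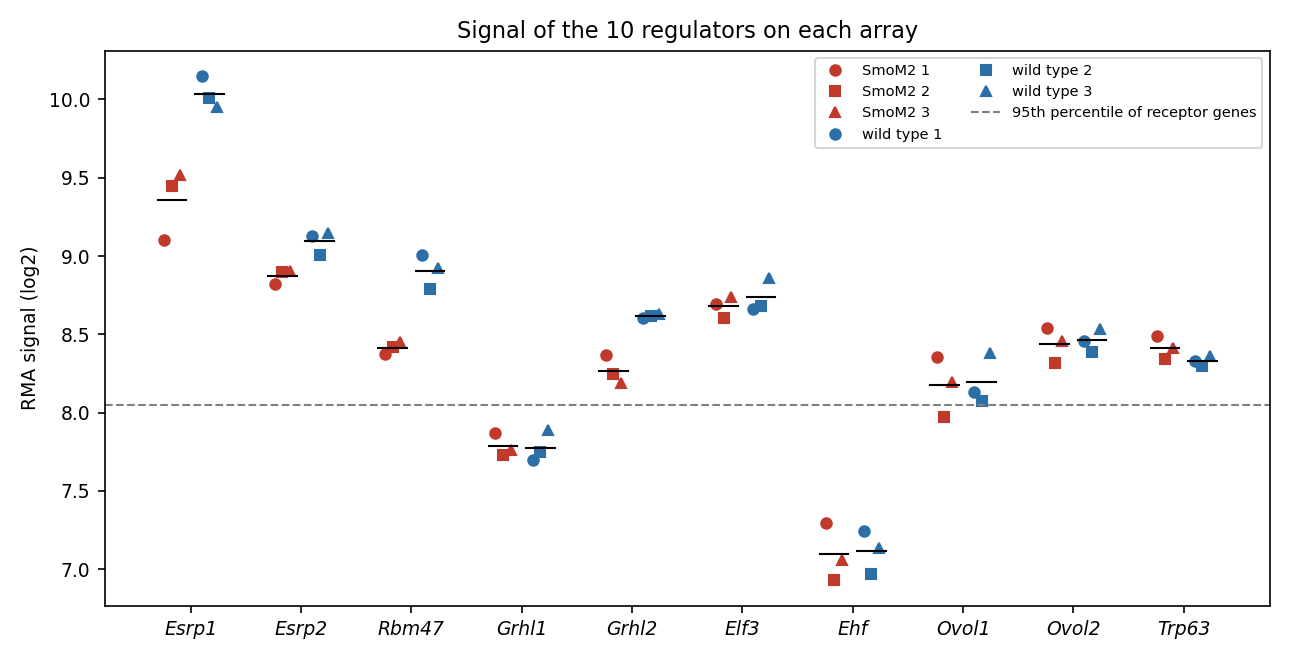
RMA signal (log2, vertical axis) of the 10 regulators on each array, SmoM2 in red to the left of wild type in blue, with marker shapes for replicate numbers, black lines for means and a dashed line at 8.05, the 95th percentile of olfactory and vomeronasal receptor genes. Esrp1, Esrp2, Rbm47 and Grhl2 have all SmoM2 points below all wild type points, and the other 6 overlap.

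Esrp1 (probe set 10511560) stood at 9.10, 9.45 and 9.51 on the 3 SmoM2 arrays, against 10.15, 10.01 and 9.96 on the wild type arrays. The highest SmoM2 value was 0.44 below the lowest wild type value, and SmoM2 1 was the lowest of all. The change was -0.68 (SE 0.11, 95% interval -0.93 to -0.43, a 1.60-fold fall, limma adjusted p = 0.0245). Only 0.251% of all genes had a more negative change. The call was lost without SmoM2 3 (adjusted p = 0.0749), without wild type 1 (adjusted p = 0.133), without wild type 2 (adjusted p = 0.0842) and once the Y-linked mean of each array entered the fit as a covariate (change -0.50, adjusted p = 0.427).

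Rbm47 (probe set 10530269) stood at 8.37, 8.42 and 8.45 in SmoM2 and at 9.01, 8.79 and 8.92 in wild type. Its SmoM2 values were tightly grouped and the groups were 0.34 apart. The change was -0.49 (SE 0.08, 95% interval -0.66 to -0.32), a 1.41-fold fall (adjusted p = 0.0225). This call was lost without SmoM2 1, SmoM2 3 or wild type 1 (adjusted p = 0.0712, 0.107 and 0.127), with arrays centred on their 75th percentile (change -0.45, adjusted p = 0.0690) and with the Y-linked covariate (change -0.45, adjusted p = 0.357).

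Esrp2, the relative of Esrp1, was at 8.82, 8.90 and 8.90 in SmoM2, against 9.13, 9.01 and 9.15 in wild type (probe set 10581455). The groups did not overlap, but the gap between them was 0.11, smaller than the spread of the wild type arrays (0.14). The change of -0.22 (SE 0.07, 95% interval -0.38 to -0.06) did not pass the test over all genes (adjusted p = 0.257).

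Grhl2, needed for epithelial junctions and neural tube closure in the mouse, was at 8.37, 8.24 and 8.19 in SmoM2 and at 8.61, 8.61 and 8.63 in wild type (probe set 10423770). Wild type arrays agreed within 0.03, and every SmoM2 array was at least 0.24 lower. The change of -0.35 (SE 0.07, 95% interval -0.51 to -0.19) had an adjusted p of 0.0617, just outside the threshold. It passed in 4 of 11 other settings, among them repeated quantile normalization (adjusted p = 0.0436). Another had the median of the olfactory and vomeronasal receptor genes of each array as a covariate (adjusted p = 0.0125). That setting was chosen after the data were seen. Grhl2 did not pass with arrays centred on their 75th percentile (adjusted p = 0.237) or with the Y-linked covariate (adjusted p = 0.398). With 1 array left out it passed in 0 of 6 fits (adjusted p = 0.0580 to 0.300).

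Grhl1, active in the epidermis and its appendages, was at 7.87, 7.73 and 7.76 in SmoM2 and at 7.70, 7.74 and 7.89 in wild type (probe set 10394954). The groups covered the same range, with a change of 0.01 (95% interval -0.17 to 0.18, limma adjusted p = 0.986).

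The Ets, Ovol and p63 genes showed no difference that these arrays could resolve. Elf3, a factor of simple epithelia such as the intestine, was at 8.69, 8.61 and 8.74 in SmoM2 and at 8.66, 8.68 and 8.86 in wild type (probe set 10358027), a change of -0.06 (95% interval -0.23 to 0.12, adjusted p = 0.878). Ehf was at 7.29, 6.93 and 7.06 in SmoM2, against 7.24, 6.97 and 7.14 in wild type (probe set 10485445), a change of -0.02 (95% interval -0.26 to 0.22, adjusted p = 0.972). In both genes the groups overlapped, and the arrays of 1 group differed by more than the group means did.

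Ovol1, which restrains the growth of epidermal progenitors, was at 8.36, 7.97 and 8.20 in SmoM2 and at 8.13, 8.07 and 8.38 in wild type (probe set 10465106; change -0.02, 95% interval -0.28 to 0.24, adjusted p = 0.979). Ovol2, which opposes mesenchymal conversion in embryonic epithelia, was at 8.54, 8.32 and 8.46 in SmoM2 and at 8.46, 8.38 and 8.54 in wild type (probe set 10488256; change -0.02, 95% interval -0.20 to 0.16, adjusted p = 0.960). Trp63 was at 8.49, 8.34 and 8.41 in SmoM2 and at 8.33, 8.30 and 8.36 in wild type (probe set 10434815; change 0.08, 95% interval -0.07 to 0.24, adjusted p = 0.772). Trp63 had the most positive change of the 10, with 1 SmoM2 array inside the wild type range. For these 6 genes the lower interval bound was -0.28 or higher, above the estimates for Esrp1, Rbm47 and Grhl2. Ehf (mean 7.10) and Grhl1 (7.78) lay below 8.05, the 95th percentile of the olfactory and vomeronasal receptor genes, and Ovol1 (8.19) just above it. RMA compresses dim signals, so intervals of dim probe sets do not exclude a larger fall of the transcript.

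**Figure D2:**
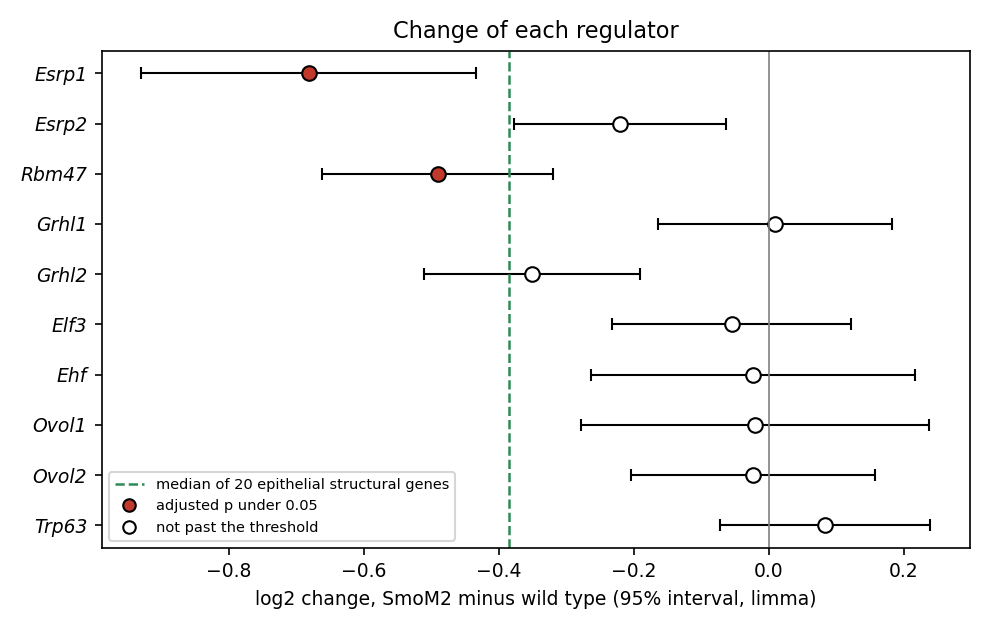
Log2 change of each regulator (SmoM2 minus wild type, horizontal axis) with its 95% limma interval, filled where the adjusted p was under 0.05, and a dashed line at the median change of 20 epithelial structural genes. The intervals of Esrp1, Rbm47, Grhl2 and Esrp2 lie below 0, those of the other 6 genes cross it, and only Esrp1 and Rbm47 are filled.

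How bright a probe set is bears on what it can show. Olfactory and vomeronasal receptor genes (1194), which the stomach is not known to use, had a 95th percentile of 8.05 for their mean over the 6 arrays, and 95% of them had log2 changes between -0.15 and 0.20. Their means were above that of Ehf for 22.9% of them and above that of Grhl1 for 9.05%. The share was 3.94% for Ovol1, 2.68% for Trp63, 2.18% for Grhl2, 2.09% for Ovol2, 1.34% for Rbm47, 1.17% for Elf3, 0.838% for Esrp2 and 0.0838% for Esrp1. Probe sets differ in their own background, so this places each gene near or above the dim range and does not rank the genes by transcript number.

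Some of the regulators also shared an order of arrays with the receptor genes. The receptor gene median was highest on SmoM2 1 (6.40) and lowest on SmoM2 2 (6.16) among the SmoM2 arrays, and highest on wild type 3 (6.32) and lowest on wild type 2 (6.18) among the wild type arrays. Ovol1, Ovol2 and Trp63 followed this order in full in both genotypes, Grhl1 and Ehf followed it in SmoM2 alone, and Esrp2 in wild type alone. In SmoM2, Esrp1, Esrp2 and Rbm47 each had SmoM2 1 as the lowest array and SmoM2 3 as the highest. The order is a description of 6 arrays and its source was not tested.

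**Figure D3:**
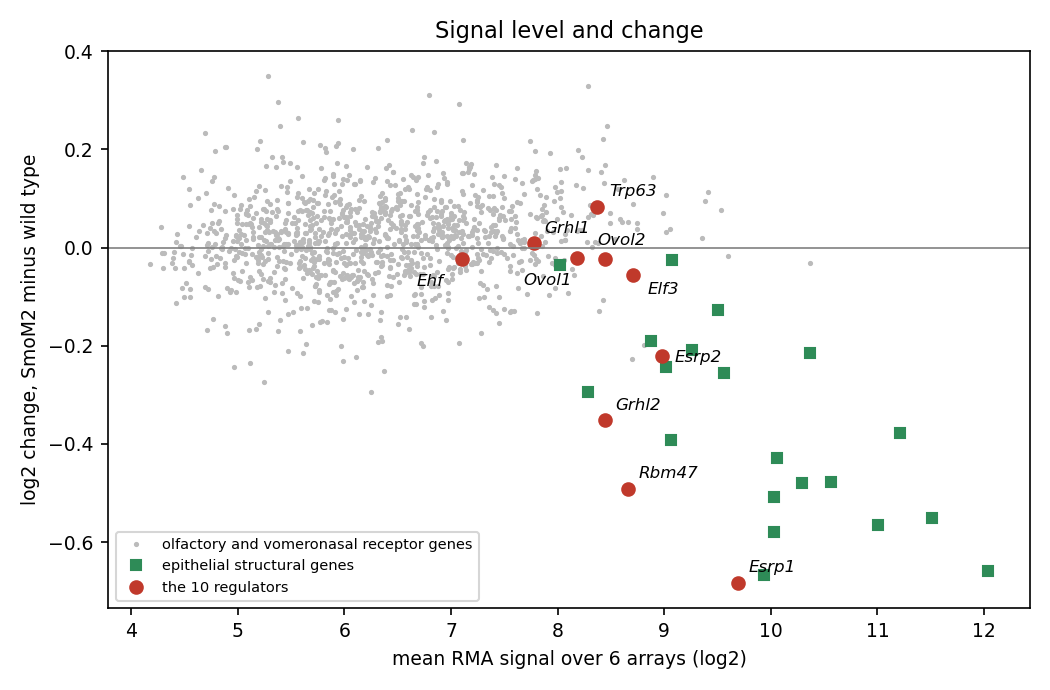
Mean RMA signal over 6 arrays (log2, horizontal axis) against log2 change, SmoM2 minus wild type (vertical axis), for receptor genes in grey, 20 epithelial structural genes in green and the 10 regulators in red. Ehf, Grhl1, Ovol1, Ovol2, Trp63 and Elf3 lie within the band of receptor genes around 0, Esrp1, Rbm47 and Grhl2 lie below all receptor genes, and Esrp2, at -0.22, lies below the range of 95% of them but not below all.

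Relatives within a family were compared on each array. Grhl1 and Ehf had means (7.78 and 7.10) below the 95th percentile of the receptor genes, so a difference against either of them cannot show that the changes of the relatives were unequal, and is given as a value. Esrp1 minus Esrp2 was 0.28, 0.55 and 0.61 in SmoM2, against 1.02, 1.00 and 0.81 in wild type, so the pair stood closer together in SmoM2 by 0.46 on the log2 scale. Grhl2 minus Grhl1 was 0.50, 0.52 and 0.43 in SmoM2, against 0.91, 0.87 and 0.75 in wild type, a shift of -0.36. In both pairs the groups did not overlap, which gives an exact two-sided permutation p of 0.1, the smallest that 3 against 3 arrays allow (adjusted p = 0.2 over the 4 pairs). Elf3 minus Ehf shifted by -0.03 (1.59 ± 0.16 in SmoM2 and 1.62 ± 0.17 in wild type, SD, n = 3 each, exact permutation p = 0.5), and Ovol2 minus Ovol1 by -0.00233 (0.26 ± 0.08 in SmoM2 and 0.26 ± 0.10 in wild type, SD, n = 3 each, exact permutation p = 1).

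**Figure D4:**
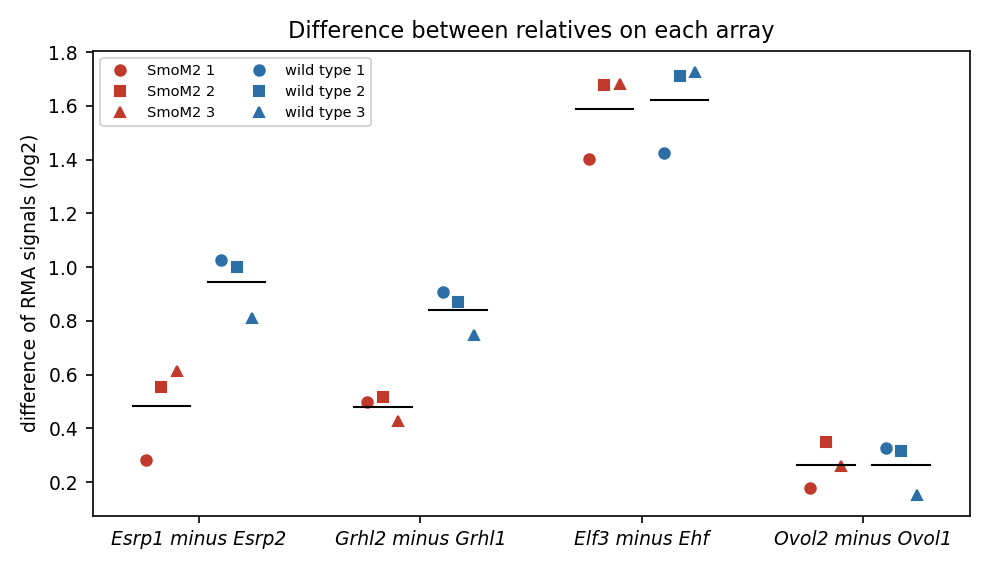
Difference between the log2 RMA signals of 2 relatives on each array (vertical axis), SmoM2 in red to the left of wild type in blue, with black lines for means. The SmoM2 points lie below all wild type points for Esrp1 minus Esrp2 and for Grhl2 minus Grhl1, and the other pairs overlap.

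The epithelial structural genes of the same arrays give a scale for these changes. The list holds 20 adhesion, tight junction, desmosome and simple keratin genes, chosen with earlier results of these data known. Of these, 9 fell and 0 rose, against 0.657% and 0.326% of all genes. All 20 had a negative change, as did 9817 of all 19938 genes, and the list median was -0.39. The largest falls were in Dsp, a desmosomal protein (1.59-fold, adjusted p = 0.0111), Cldn6, a tight junction protein (1.58-fold, adjusted p = 0.0121), and Cdh1, which encodes E-cadherin (1.49-fold, adjusted p = 0.0111). The list mean was 9.64 to 9.74 on SmoM2 arrays and 9.98 to 10.12 on wild type arrays, a difference of -0.36.

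Relative to that mean, Esrp1 was at -0.54, -0.28 and -0.22 in SmoM2, against 0.03, 0.03 and -0.15 in wild type, a difference of -0.32 between the genotypes. The difference was -0.13 for Rbm47, 0.01 for Grhl2 and 0.14 for Esrp2. It was 0.31 for Elf3, 0.34 for Ehf, Ovol1 and Ovol2, 0.37 for Grhl1 and 0.45 for Trp63. For these 6 genes, whose own changes ran from -0.06 to 0.08, the value mostly restates the difference of the epithelial mean itself. Ehf and Grhl1 also had means below the 95th percentile of the receptor genes. Exact two-sided permutation p was 0.9 for Grhl2, 0.2 for Ovol1 and 0.1, the smallest possible, for the other 8 (adjusted p = 0.9, 0.222 and 0.125 over the 10 genes). Set against the median of the list in place of its mean, the value of Esrp1 was -0.14 and that of Rbm47 turned to 0.05.

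Genes linked to the regulators by role were read next. Of 13 genes linked to grainyhead-like factors, 4 fell, 0 rose and 9 did not pass, where 0.657% of all genes fell and 0.326% rose. All 13 had a negative change, as did 9817 of all 19938 genes, and the list median was -0.32. The 13 share 5 genes with the structural list, Cdh1 and Cldn4 among them. Cdh1 was at 9.67, 9.78 and 9.75 in SmoM2, against 10.41, 10.32 and 10.22 in wild type. Ap1m2, the epithelial subunit of a clathrin adaptor, was at 8.63, 8.86 and 8.86 in SmoM2, against 9.37, 9.29 and 9.38 in wild type (1.48-fold lower, adjusted p = 0.0176), and Cldn4, a tight junction protein, fell 1.39-fold (adjusted p = 0.0436). Every SmoM2 array lay below every wild type array in 10 of the 13, these 3 among them, against 10.1% of all genes.

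Of 12 measured genes linked to p63 in stratified epithelia (13 listed), 0 rose, 0 fell, and the median was -0.01. Fras1, a basement membrane protein, was at 9.37, 9.80 and 9.36 in SmoM2 and at 10.10, 10.64 and 9.96 in wild type (change -0.72, adjusted p = 0.115), and Dst, which anchors hemidesmosomes, had a change of -0.40 (adjusted p = 0.115). The groups of both did not overlap, but the wild type arrays of Fras1 spread widely.

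Of 9 transcripts that Esrp proteins splice, 0 rose and 0 fell, with a median of -0.09. Ctnnd1, the catenin p120, had a change of -0.22 (adjusted p = 0.289) and Slk, a kinase, of -0.21 (adjusted p = 0.362). Each probe set sums a gene's signal, so exon choice in these transcripts was not analysed here.

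Transcription factors of the mesenchymal state numbered 7, of which 0 rose and 0 fell (median 0.04). Zeb2, a repressor of Cdh1, was at 10.72, 10.75 and 10.75 in SmoM2 and at 11.15, 11.14 and 10.97 in wild type (change -0.35, adjusted p = 0.0722), and Twist2 had a change of 0.29 (adjusted p = 0.304). Of 15 other splicing regulators 0 rose and 0 fell (median -0.01), with Rbfox2 at a change of -0.19 (adjusted p = 0.347) and Celf2 at -0.18 (adjusted p = 0.463). Close relatives of the 10 regulators (7) also had 0 in either direction (median 0.11). Among them A1cf, a relative of Rbm47 that likewise assists Apobec1, was at 6.69, 6.76 and 6.94 in SmoM2 and at 7.37, 7.09 and 7.13 in wild type (change -0.40, adjusted p = 0.120), and Rbm46 had a change of 0.16 (adjusted p = 0.653).

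**Figure D5:**
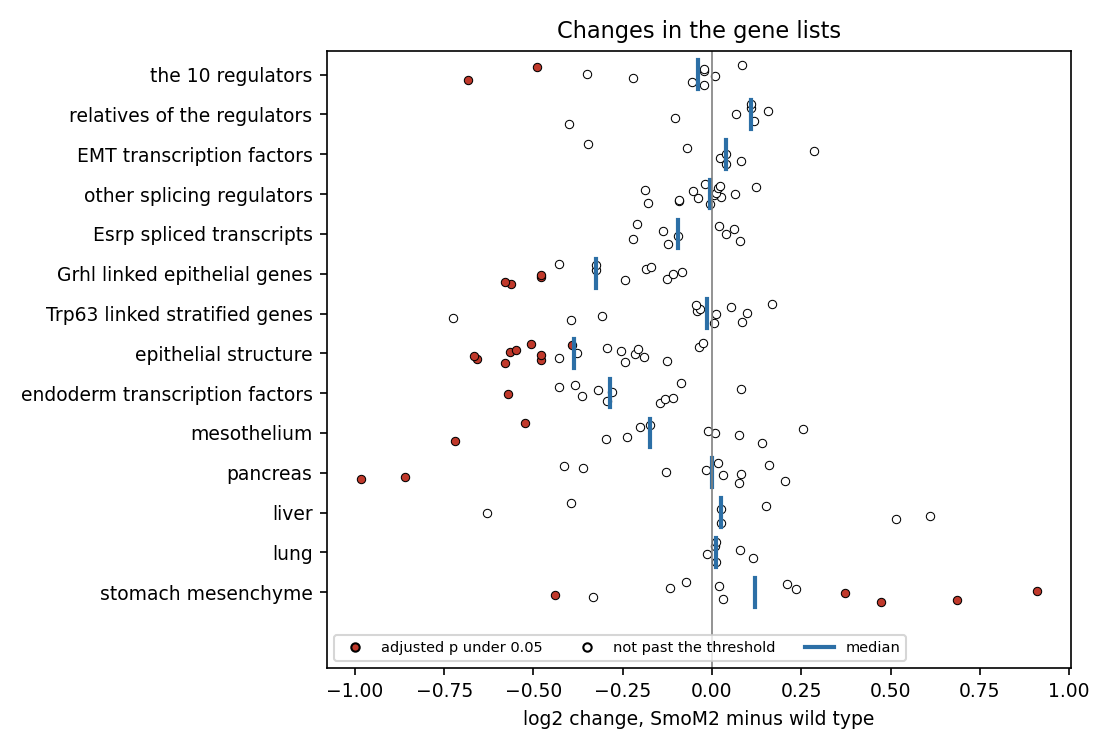
Log2 change (SmoM2 minus wild type, horizontal axis) of each measured gene in the lists, filled where the adjusted p was under 0.05, with blue bars for list medians. The structural and grainyhead-linked epithelial genes lie below 0 (20 of 20 and 13 of 13), as do 9817 of all 19938 genes. The lists of splicing regulators, mesenchymal transcription factors and p63-linked genes centre near 0.

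Other cell types in the dissected tissue can carry the same regulators, and their markers were read on the same arrays. Over all genes, 0.657% fell, 0.326% rose and 9817 of 19938 had a negative change. Of 12 measured endoderm transcription factors and signals 1 fell, Gata6 (1.49-fold, adjusted p = 0.0241), 11 had a negative change, and the list mean was 9.42 to 9.56 in SmoM2 and 9.69 to 9.81 in wild type. Of 12 measured pancreas genes, an epithelium next to the stomach, 2 fell, the enzyme gene Cpa1 (1.98-fold, adjusted p = 0.0258) and the hormone gene Gcg (1.81-fold, adjusted p = 0.0168). The other 10 did not pass, 6 of the 12 had a positive change, and the median was 0.000962. On every SmoM2 array 4 genes were lower and 1 was higher, against 10.1% and 5.64% of all genes. The list mean was 8.67 to 8.81 in SmoM2 and 8.81 to 9.03 in wild type. Of 11 mesothelium genes 2 fell, Bnc1 (1.65-fold, adjusted p = 0.0158) and Wt1 (1.44-fold, adjusted p = 0.0201). The other 9 did not pass, 4 of the 11 had a positive change, and the median was -0.17. Here too 4 genes were lower and 1 was higher on every SmoM2 array, against the same shares of all genes. The mesothelium list mean was 9.45 to 9.55 in SmoM2 and 9.64 to 9.68 in wild type. Their part in the falls of Esrp1 and Rbm47 was not tested.

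Liver genes (7 measured) and lung genes (6) had 0 past the threshold. The liver list ran from 9.77 to 10.56 in SmoM2 and from 9.86 to 10.58 in wild type, with Alb at a change of 0.61 (adjusted p = 0.752) and Ambp at -0.63 (adjusted p = 0.0572). The lung list ran from 9.99 to 10.04 in SmoM2 and from 9.92 to 10.03 in wild type, with Foxp2 at 0.12 (adjusted p = 0.642) and Nkx2-1 at 0.08 (adjusted p = 0.850). Of 12 genes of stomach mesenchyme 4 rose and 1 fell, led by Foxf2, a forkhead factor (1.88-fold, adjusted p = 0.00197), Actg2, the enteric smooth muscle actin (1.61-fold, adjusted p = 0.0405), and Acta2, another smooth muscle actin (1.39-fold, adjusted p = 0.0436). The other 7 did not pass, 4 of the 12 had a negative change, the lowest at -0.44, and the median was 0.12. On every SmoM2 array 5 genes were higher and 3 lower, against 5.64% and 10.1% of all genes. By the test, 0.326% of all genes rose and 0.657% fell. That list mean was 11.50 to 11.61 in SmoM2 and 11.36 to 11.40 in wild type.

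Among all other genes, those most like the mean profile of the 10 regulators over the 6 arrays were Olfr1022 (Pearson r 0.996), St14 (0.993), Elapor1 (0.985), Rnf208 (0.983) and Atp2a3 (0.983). St14, the epithelial serine protease matriptase, was at 9.46, 9.28 and 9.48 in SmoM2 and at 9.89, 9.69 and 9.93 in wild type (change -0.43, adjusted p = 0.0663). Olfr1022, an olfactory receptor gene, was at 5.40 ± 0.05 in SmoM2 and 5.54 ± 0.04 in wild type (SD, n = 3 each), in the dim range. With 6 arrays in 2 genotypes such values describe a shared order of arrays, and none of the 5 genes passed the test in limma.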

How the data were processed

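Total RNA of embryonic stomach was extracted with Trizol and biotin-labelled, per the labels' protocols. The deposited values are log2 signals of 35556 probe sets, made with RMA (background correction, quantile normalization and probe set summary), and affy is listed as well, per the submitters' processing notes, which state no version. RMA draws arrays towards 1 distribution and compresses dim signals, and no detection call was used. The number of arrays limits the precision.

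Probe sets were named from the platform annotation, in which 21789 of 23410 listed probe sets had 1 symbol. Each of 19938 genes was represented by its probe set with the highest mean over 6 arrays, and all 10 regulators were matched to RefSeq by gene identifier. SmoM2 was compared with wild type (3 arrays each, grouped by title) with lmFit and eBayes of limma 3.58.1 (R 4.3.3), adjusted by Benjamini-Hochberg over all genes. Changes are SmoM2 minus wild type in log2 units, with moderated standard errors. Within-array differences were tested by exact permutation of the arrays. The code was tested on simulated data.

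The members and lists were chosen with earlier results of these data known. The text names all 10 regulators, Hhip, Ptch1 and Smo, per list the 3 called members that moved most (or, with none called, the 2 that moved most), and the 5 genes most like the regulators' mean profile. Barx1, Xist and Y-linked genes were named outside this rule. The 12146 unlisted probe sets were not used here.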

Additional observations from a re-analysis of the deposited data

How the results depend on the processing

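The number of regulators that changed, 2 of 10, was 0 to 2 over the 6 fits that left out 1 array, 1 with centring on the 75th percentile, 4 with array weights (whose estimate stopped before reaching its tolerance) and 0 with the Y-linked covariate. The count over all genes, 196, was 32 to 247 over those 6 fits, 120 with centring on the 75th percentile, 336 with an intensity trend, 4110 with array weights, 22 with the Y-linked covariate and 729 with the receptor gene median as a covariate, the last chosen after the data were seen. The median change of the regulators, -0.04, was -0.12 to 0.0092 with 1 array left out, -0.36 among the 4 regulators above the median of all probe sets (the other 6 have no value there) and -0.17 with the Y-linked covariate. The median of the regulators relative to the epithelial structural genes, 0.32, was 0.21 to 0.39 with 1 array left out and 0.50 against the median of the list. The differences between relatives moved by less than their spread in each setting run. Relative to the epithelial structural genes, Rbm47 turned from -0.13 to 0.049 against the median of the list, and Grhl2, at 0.012, ran from -0.070 to 0.069 with 1 array left out. In the comparison of SmoM2 with wild type, signs turned in 5 regulators that had not passed the test, and the cause was not tested. Grhl1 was at -0.11 with the Y-linked covariate and at -0.032 to 0.064 with 1 array left out. Elf3 was at 0.031 with array weights and at -0.091 to 0.0074 with 1 array left out. With centring on the 75th percentile Ehf, Ovol1 and Ovol2 were at 0.016, 0.018 and 0.016, and Ovol1 was at 0.028 with array weights. With 1 array left out, Ehf ran from -0.12 to 0.060, Ovol1 from -0.11 to 0.082 and Ovol2 from -0.074 to 0.037. The replicate number as a block gave 698 genes, and 3 regulators with Grhl2 among them (adjusted p = 0.0186). Deviations of same-numbered arrays had correlations of -0.10, 0.52 and 0.06, and those of differently numbered arrays ran from -0.60 to 0.52. These values do not settle whether arrays were paired. The labels state no pairing, so the numbers were not taken as pairs. The means of Ehf and Grhl1 lay below the 95th percentile of the receptor genes (8.05) and that of Ovol1 (8.19) just above it, which limits what their probe sets can show. Each of the 10 regulators had some receptor genes above it.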
